A study of Homo sapiens with 9 samples.

Results

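The subject is the resting transcriptome of BxPC3, an established human cell line of pancreatic ductal adenocarcinoma, as measured by RNA-seq in its vehicle-treated cells. The 3 libraries labelled Vehicle were used, of 9 libraries in all. No treatment contrast was tested: each gene was described by its level in these 3 libraries, and a gene was called expressed where their mean reached 1 FPKM (fragments per unit of transcript length, scaled to the mapped fragments of the library, which allows levels of different genes to be set side by side). The remaining libraries were 3 from cells transfected with siRNA against STAT3, labelled STAT3 knockdown, and 3 from cells given WB436B, a compound named in the labels only by this code, at 0.1 µM. All groups shared the same line, grown in RPMI medium with 10% fetal bovine serum and antibiotics. The labels call the libraries of a group biological replicates and do not say whether they came from separate cultures, so the SD given here measures the spread between libraries, which may be technical. The labels say neither what the vehicle was nor how long it was applied.

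The pancreas is built from acinar cells that make digestive enzymes, endocrine cells that make hormones, and a tree of ducts lined by a simple epithelium. Pancreatic ductal adenocarcinoma carries ductal features, and its tumours have been sorted by RNA into a classical type, with gastric and intestinal secretory genes and the factors GATA6 and HNF4A, and a basal-like type, with keratins and other genes of squamous epithelium and the factor TP63. BxPC3 is a model that grows as epithelial sheets. It is known for the loss of CDKN2A and SMAD4.

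The table held 60564 gene identifiers, of which 12236 reached a vehicle mean of 1 FPKM, or 20.2%. Among 19887 protein-coding genes the count was 10448, or 52.5%, and this is the background against which each count below can be read. The median protein-coding gene stood at 1.33 FPKM. Of the coding genes at 1 FPKM or more, 6995 lay below 10 FPKM, 3225 from 10 to 100, 212 from 100 to 1000 and 16 at 1000 or more. Estimated depth was 14900000 to 47200000 fragments in a library, with the first vehicle library the deepest, so a gene at 1 FPKM rested on about 14.9 to 47.2 fragments per kilobase. Pearson correlations between the vehicle libraries, over log2(FPKM + 1) across genes, ran from 0.979 to 0.982, and the SD over the 3 libraries was 7.04% of the mean for the median expressed coding gene. As a check of the labels, the siRNA target STAT3 measured 16.4, 15.8 and 15.1 FPKM in the vehicle libraries, 2.98, 2.58 and 3.02 FPKM in those labelled STAT3 knockdown, and 10.5, 10.9 and 10.8 FPKM in those labelled WB436B. When each library was rescaled to a fixed total as in TPM, which raised every value above 0, 16516 identifiers reached the threshold.

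The levels of 4 genes named for this line were read first. As no other line was measured, they cannot tell BxPC3 from other epithelial lines. KRT19, the keratin of duct epithelium, stood at 732, 685 and 714 FPKM. KRT17, a keratin of basal and injured epithelium and of basal-like tumours, stood at 376, 376 and 379 FPKM. SERPINB3, an intracellular protease inhibitor of squamous epithelium first described as squamous cell carcinoma antigen, stood at 142, 156 and 149 FPKM. All of these were high and close together in the 3 libraries. MUC1, the transmembrane mucin of ducts and glands, stood lower at 8.12, 8.27 and 8.15 FPKM. The libraries did not separate on any of the 4, with means of 710.2 ± 24, 377 ± 1.82, 149 ± 6.94 and 8.18 ± 0.0797 FPKM (SD, n = 3). All 4 were above 1 FPKM in every library.

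Some members have near-identical copies, and their levels depend on how fragments were divided between the copies, a step that the labels do not describe. SERPINB3 and its neighbour SERPINB4 show this, since the first is a marker of this line and the second lies in the same tumour list. SERPINB4 stood at 9.49, 8.75 and 10.2 FPKM, far below SERPINB3 in each library. Their coding sequences, each of 1173 bases in GENCODE 29 transcripts, were 95.2% identical, with 56 mismatches and no gap. A stretch of 90 bases from position 43 to 132, counted from 1 at the start codon, had no difference at all. The stretch of 90 bases with the most differences, 13, ran from position 970 to 1059 and codes for part of the reactive centre loop, the segment that decides which proteases a serpin traps. It is shown 5′ to 3′ with the differing bases in capitals.
SERPINB3: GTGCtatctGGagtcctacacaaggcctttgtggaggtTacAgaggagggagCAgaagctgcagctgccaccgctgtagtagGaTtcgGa
SERPINB4: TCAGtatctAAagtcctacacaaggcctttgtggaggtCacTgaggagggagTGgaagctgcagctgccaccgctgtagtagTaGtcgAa
Only a fragment that covers a differing base can be assigned by its sequence to one of these genes. Of the windows of 50 bases along the longest SERPINB3 transcript, 23.9% also occurred in another gene. The share was 15.98% for KRT17, whose copies include the pseudogene KRT17P1, and 1.79% for KRT19. KRT6A was more exposed, with 39.1% of windows shared and coding identities of 97.5% with KRT6B and 97.9% with KRT6C, so the division between the KRT6 genes is uncertain.

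The most abundant transcripts were mitochondrial. The mitochondrially encoded genes took 37.1 ± 1.94% of all FPKM (SD, n = 3), led by MT-CO1, a subunit of cytochrome c oxidase, at 15347, 16528 and 16338 FPKM. Cytosolic ribosomal protein genes took 4.39 ± 0.24%, counting coding genes only and not pseudogene entries such as RPL41P1 at 1309 FPKM. The 100 most abundant identifiers together held 48.9 ± 1.64%. After the mitochondrial and ribosomal protein genes, the table was led by GAPDH of glycolysis at 2039, 2031 and 2066 FPKM, TMSB10, which binds actin monomers, at 1272, 1306 and 1507 FPKM, and FTL, the ferritin light chain, at 1203, 1127 and 1308 FPKM. KRT19 was the seventh coding gene in that order. Mitochondrial genes were about the same part of the summed FPKM of each library, from 34.9% to 38.4%. The lowest share was in the first library, where MT-ATP6 stood at 1953 FPKM against 11352 and 11784 FPKM in the others.

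**Figure D1:**
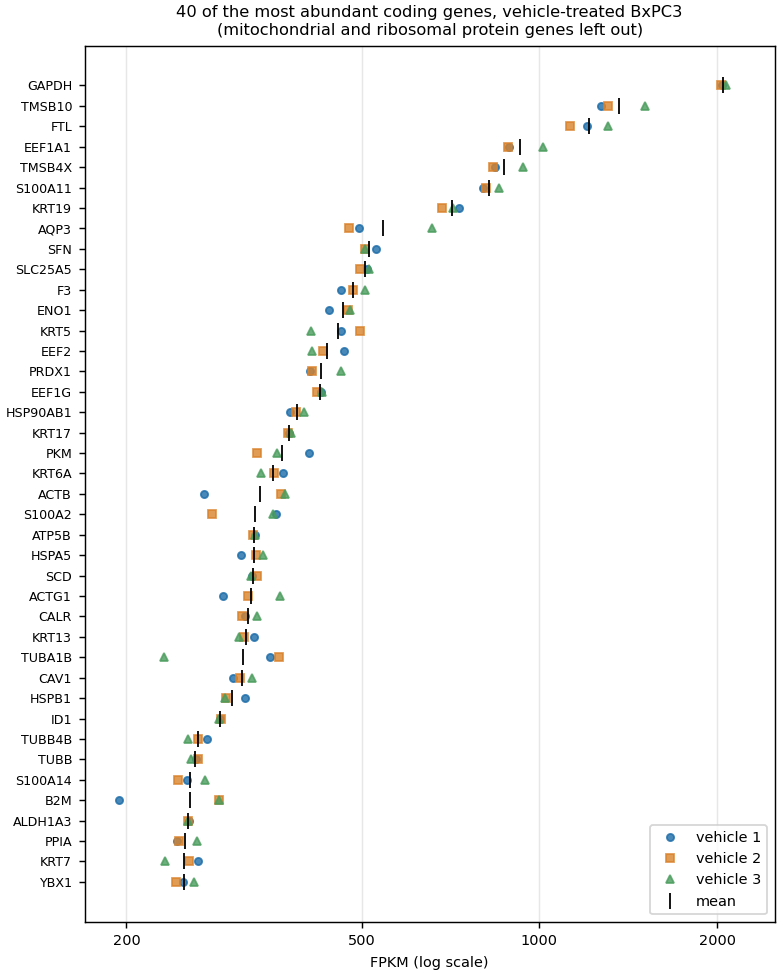
FPKM on a log axis of 40 of the most abundant coding genes after mitochondrial and ribosomal protein genes, with a symbol for each vehicle library and a bar for their mean. Housekeeping genes such as GAPDH stand beside epithelial genes, KRT19 at 710.2, SFN at 514 and KRT5 at 457 FPKM, and the symbols of most genes nearly overlap.

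Genes of surface epithelium were spread through the top of that order. AQP3, a water and glycerol channel of stratified epithelium, stood at 495, 477 and 657 FPKM, highest in the third library. SFN, the epithelial 14-3-3 protein, stood at 529.7, 506 and 506 FPKM. F3, tissue factor, which starts coagulation, stood at 461, 483 and 507 FPKM. None of these was weak in any library. S100A2, a calcium-binding protein of basal epithelium, stood at 358, 279 and 354 FPKM. Genes of lipid and retinoid metabolism and of signalling also reached this level, among them SCD, the fatty acid desaturase, at 326, 333 and 325 FPKM, ALDH1A3, which makes retinoic acid, at 255, 254 and 254 FPKM, and ID1, which blocks DNA binding by helix-loop-helix factors, at 289, 289.6 and 287 FPKM. CAV1, the coat protein of caveolae, stood at 303, 311 and 327 FPKM. These genes differed little between the libraries.

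Keratins, the intermediate filament proteins of epithelium, came from both the simple and the stratified programmes. Together they held 0.949 ± 0.0692% of all FPKM. Of 17 type I keratins 9 reached 1 FPKM, and of 20 type II keratins 8 did. In the type I family KRT19, KRT17 and KRT13 stood at 710.2, 377 and 318 FPKM, then KRT18 at 91.6, KRT15 at 10.01, KRT14 at 4.68, KRT23 at 3.86, KRT10 at 3.23 and KRT16 at 2.29. In the type II family KRT5, KRT6A and KRT7 led at 457, 354 and 251 FPKM, followed by KRT8 at 94 and KRT4 at 56.4. KRT5, the basal cell keratin, stood at 462, 498 and 411 FPKM. KRT14, its usual partner in basal keratinocytes, stood at only 4.61, 5.45 and 3.99 FPKM. KRT13 and KRT4, the pair of wet stratified mucosa, stood at 329, 316 and 309.9 FPKM and at 58.2, 56.3 and 54.8 FPKM, and KRT8 and KRT18, the pair of simple epithelium, at 90.6, 88.7 and 103 FPKM and at 89.4, 91.4 and 94.1 FPKM. KRT7, the type II keratin of ducts, stood at 264, 256 and 232 FPKM. The keratins of the cornified skin surface were low or at 0, with KRT1 at 0.00710 FPKM and KRT2 listed at 0, and so was the intestinal keratin KRT20 at 0.0379 FPKM.

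Of 38 genes of squamous and basal keratinocytes, 37 reached 1 FPKM, against 52.5% of all coding genes. The median of the list was 31.1 FPKM against 1.33. As the list was drawn up with earlier results of these data known, this share is not independent evidence of identity. A total of 28 stood at 10 FPKM or more and 9 at 100 or more. The only one below the threshold was IVL, involucrin of the cornified envelope, at 0.954, 0.961 and 0.669 FPKM. Of the basement membrane anchors, COL17A1, the hemidesmosome collagen, stood at 181, 181 and 157 FPKM, and LAMB3 and LAMA3, chains of laminin-332, at 81.7 and 29 FPKM. Desmosomal genes of stratified epithelium were present too, DSG3 at 31.2, DSC3 at 29 and PKP1 at 23.6 FPKM. Genes of the cornified envelope varied: SPRR1A stood at 114, 110.2 and 120.2 FPKM, SPRR1B at 74.4 FPKM and SPRR3 at 3.01 FPKM. Mucosal protease inhibitors stood at 90.9 FPKM for PI3, elafin, and 63.6 FPKM for CSTA, cystatin A. The alarmin pair was uneven, with S100A9 at 94.1, 95.6 and 110.0 FPKM and S100A8 at 2.63 FPKM. The summed level of the list was 3662 to 3834 FPKM per library.

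Of 22 ductal and simple epithelial genes, 15 reached 1 FPKM, with a median of 8.38 FPKM. Adhesion and surface genes were firmly expressed. CDH1, E-cadherin, stood at 61.2, 60.2 and 58.2 FPKM, and EPCAM, an epithelial adhesion molecule, at 27.9, 29.6 and 29.4 FPKM. CD24 stood at 83 FPKM, SPP1, osteopontin, at 9.67, 11 and 11.4 FPKM, and SOX9, the factor of duct and progenitor cells, at 3.92, 3.98 and 3.83 FPKM. The 7 genes below the threshold included channels and transporters of duct cells, and all were under 0.1 FPKM. CFTR, the chloride and bicarbonate channel, stood at 0.00618 FPKM, SLC4A4, the bicarbonate cotransporter, at 0.0370, AQP1, the duct water channel, at 0.0895, and PKHD1, fibrocystin of the primary cilium, at 0.0452. PROM1 and BICC1 stood at 0.00383 and 0.0358 FPKM. CA2, carbonic anhydrase, was the expressed gene nearest to the threshold at 1.49, 1.56 and 1.81 FPKM, while the highest of the genes below it was AQP1 at 0.0521, 0.113 and 0.104 FPKM. CLDN4, a tight junction claudin, rested on 1 library: it stood at 1.6, 23.6 and 0.504 FPKM, a mean of 8.57 FPKM that becomes 1.05 without the second library.

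Of 17 mucins 6 reached 1 FPKM, and none reached 10. After MUC1 came MUC4, another membrane mucin, at 7.32, 6.85 and 6.31 FPKM. The gel-forming mucins MUC2 and MUC5AC stood at 2.89 and 1.5 FPKM, MUC20 at 2.1 and MUC13 at 1.64. MUC16, which carries the CA-125 epitope, stood at 0.471 FPKM, MUC5B at 0.333 and MUC6 at 0.141, and MUC17 was listed at 0. Of 26 gastric and intestinal genes, 10 reached 1 FPKM, and the list's median was 0.511 FPKM. The high ones were few and, except for TFF1, steady. CEACAM6, an adhesion protein of the carcinoembryonic antigen family, stood at 208, 218 and 209.8 FPKM, CEACAM5, carcinoembryonic antigen itself, at 98.5, 103 and 101 FPKM, and ANXA10, an annexin of gastric mucosa, at 73.6, 74.7 and 77 FPKM. AGR2, a disulfide isomerase of mucus-making cells, stood at 50.8, 51.6 and 59.9 FPKM, and TFF1, a gastric trefoil peptide, at 12.5, 8.92 and 14.5 FPKM. Other members were near 0, VIL1 at 0.0115, CDH17 at 0.0385 and CDX2 at 0.0104 FPKM, with REG4, CDX1 and AGR3 listed at 0.

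Genes of other pancreatic and stromal cells were mostly below the threshold. Of 23 acinar genes 2 reached it: CEL, a lipase, at 6.91, 7.69 and 7.52 FPKM, with 27.2% of its windows shared, mostly with the pseudogene CELP, and PRSS1, cationic trypsinogen, at 0.734, 1.18 and 1.23 FPKM. PRSS1 fell under 1 FPKM when the second or the third library was left out. PNLIP, CPB1, CELA3A and GP2, which define acinar cells, were listed at 0, and the acinar genes summed to 8.91 to 10.5 FPKM per library. Of 22 endocrine genes ISL1, an islet homeobox factor, alone reached 1 FPKM, at 1.08, 1.26 and 1.43 FPKM, and 2 genes did after the TPM-like rescaling. The hormones INS, GCG, SST and PPY were listed at 0. The genes summed to 2.84 to 3.33 FPKM per library.

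Of 18 genes of stellate cells and fibroblasts, 6 reached 1 FPKM, the highest S100A4 at 7.14, 6.63 and 7.87 FPKM, and the list summed to 20.9 to 21.9 FPKM. COL1A1 stood at 1.75, 1.81 and 1.58 FPKM, but COL1A2, the other chain of type I collagen, POSTN and DES were listed at 0, and DCN and PDGFRB stood at 0.0215 and 0.00594 FPKM. No endothelial gene of 12 reached 1 FPKM, with ESAM nearest at 0.571 and KDR, CLDN5, PLVAP and EMCN listed at 0, but 3 reached it after the TPM-like rescaling. Of 17 leukocyte genes CD68 and CD14 did, at 4.49 and 1.68 FPKM, and 92.6% of the windows of CD68 were shared with an overlapping gene model. PTPRC, the pan-leukocyte phosphatase CD45, stood at 0.00643 FPKM. No hepatocyte gene of 12 reached the threshold, the highest being SERPINA1 at 0.129 FPKM. Of 12 Schwann cell and neural genes 3 did: NGFR, the p75 neurotrophin receptor that basal epithelium also carries, at 6.93, 6.01 and 6.04 FPKM, MBP at 4.45 FPKM and TUBB3 at 3.8 FPKM, with 79.6% of TUBB3 windows shared. S100B was listed at 0 and SOX10 stood at 0.0129 FPKM.

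**Figure D2:**
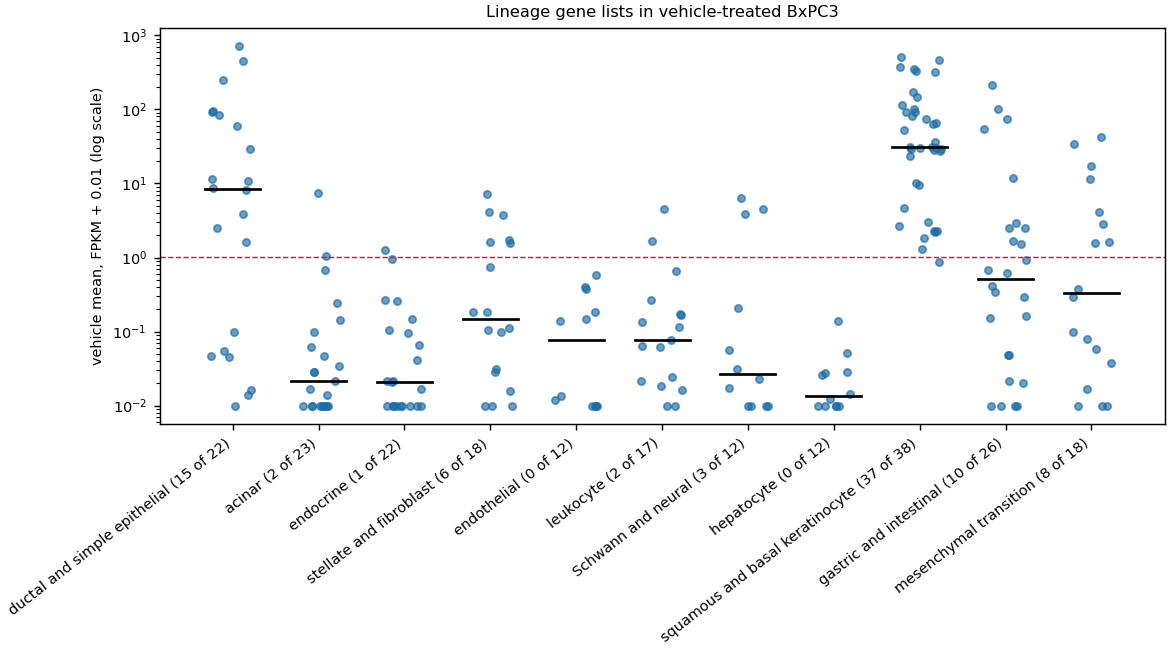
Vehicle mean of each gene of 11 lineage lists, as FPKM + 0.01 on a log axis, with a point per gene, a black bar at the list's median and a dashed line at the 1 FPKM threshold; the axis labels give the number of genes at the threshold or above. The squamous list lies almost wholly above the line (37 of 38), and the ductal list is split (15 of 22). The acinar, endocrine, endothelial and hepatocyte lists lie mostly or wholly below it, with CEL of the acinar list the highest of these at 7.37 FPKM. All lists were drawn up with earlier results of these data known.

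Genes of epithelial to mesenchymal change were expressed at a share near that of all coding genes. Of 18, 8 reached 1 FPKM, or 44.4% against 52.5%, with a median of 0.326 FPKM. TGFBI, a matrix protein induced by TGF-beta, stood at 37.8, 44.1 and 44.8 FPKM, and SNAI2, the factor Slug, at 16.6, 17.8 and 17.7 FPKM. The other regulators were below 1 FPKM: SNAI1 stood at 0.280, ZEB1 at 0.0488 and ZEB2 at 0.0278 FPKM, and TWIST1, TWIST2 and PRRX1 were listed at 0. VIM, vimentin, stood at 3.84, 3.7 and 4.67 FPKM. Of 10 classical cadherins 3 reached 1 FPKM, CDH1, the placental cadherin CDH3 at 42, 46.4 and 48.5 FPKM and CDH11 at 2.82 FPKM, while CDH2, N-cadherin, stood at 0.367, 0.199 and 0.549 FPKM. After the TPM-like rescaling 6 of the cadherins reached the threshold.

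Published tumour lists were read in the same way. Of the 25 basal-like genes of the Moffitt classification 22 reached 1 FPKM, with a median of 29.9 FPKM, and of 24 classical genes that could be matched 8 did, with a median of 0.345 FPKM. The basal-like list shares KRT17, KRT6A, S100A2, SERPINB3 and others with the squamous list, so the lists are not separate evidence. Its other members included FGFBP1, a carrier that releases FGFs from matrix, at 73, 74 and 75.2 FPKM, TNS4, an adhesion adaptor, at 63.2 FPKM, and SLC2A1, the glucose transporter, at 61.5 FPKM. Those below the threshold were the long non-coding RNA UCA1 at 0.763, LEMD1 at 0.597 and CST6, cystatin M, listed at 0. The 4 classical genes at 10 FPKM or more were CEACAM6, ANXA10, AGR2 and TFF1. LYZ, TSPAN8 and LGALS4 stood at 0.124, 0.249 and 0.409 FPKM, and REG4, CLRN3 and AGR3 were listed at 0.

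The Collisson lists were less divided. Of 22 classical genes 15 reached 1 FPKM (median 11.7 FPKM), of 20 quasi-mesenchymal genes 15 did (median 12.6), and of 20 exocrine-like genes 2 did (median 0.00485). Among the classical genes S100P, a calcium-binding protein of pancreatic cancer, stood at 206, 169 and 206 FPKM and GPX2, a glutathione peroxidase, at 51.8, 53.1 and 57 FPKM. FXYD3 stood at 164 FPKM, with 84.6% of its windows shared with another gene model. Among the quasi-mesenchymal genes CAV1 and S100A2 led, and TWIST1 and PAPPA were listed at 0. PHLDA1, a member of this list, differed between libraries at 23.6, 84.1 and 75.8 FPKM.

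In 8 gene pairs used to tell the tumour types apart, the basal-like gene was higher than the classical gene in all 3 libraries in 8 of 8 pairs. Several of these genes, among them KRT6A, S100A2, ANXA10, LGALS4 and CLRN3, were already counted in the lists above. The pairs are therefore not separate evidence. KRT5 was set against CLRN3, which was listed at 0, and S100A2 against SLC40A1, the iron exporter ferroportin, at 0.904, 0.783 and 0.624 FPKM. ITGA3, an integrin chain that binds laminin, stood at 73.9, 72.1 and 64.2 FPKM against LGALS4 at 0.394, 0.260 and 0.571 FPKM. PTGES, which makes prostaglandin E, stood at 67.3, 68.3 and 71.5 FPKM against CLDN18 at 0.634, 0.518 and 0.686 FPKM. These pairs were wide apart. The narrowest was BCAR3, an adaptor of Src-family signalling, at 15.6, 16.8 and 14.3 FPKM against GATA6 at 9.49, 9.67 and 9.92 FPKM, a ratio of means of 1.61. KRT6A over ANXA10 had a ratio of 4.72. C16orf74 stood at 4.32, 3.54 and 4.21 FPKM against DDC at 0.000540 FPKM.

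**Figure D3:**
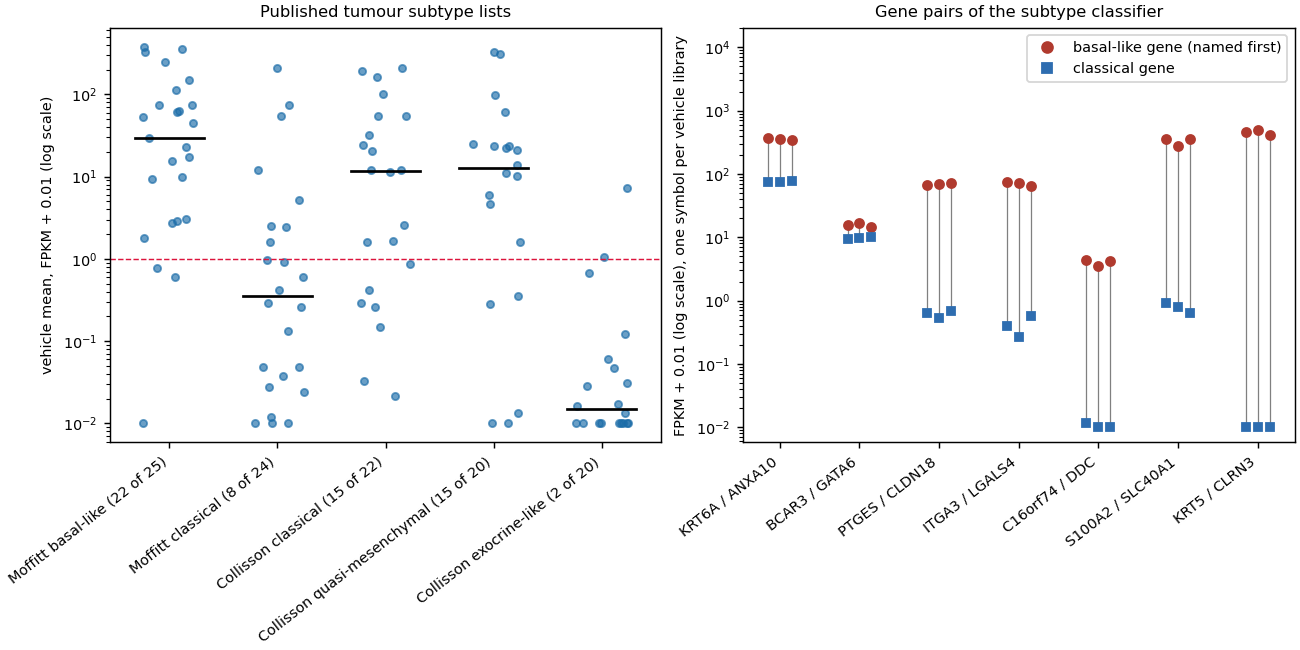
Left, vehicle mean of each gene of 5 published tumour lists as FPKM + 0.01 on a log axis, with the median as a black bar and the 1 FPKM threshold dashed. Right, 7 of the gene pairs on the same scale, basal-like gene as a circle and classical gene as a square, joined for each vehicle library; the circle is the higher in every library, with the smallest gap for BCAR3 over GATA6.

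Transcription factors of the pancreas and foregut were few. Of 26, 6 reached 1 FPKM, and the list's median was 0.0229 FPKM. FOXA1, which opens chromatin in endodermal epithelium, stood at 11.7, 13 and 12.8 FPKM, MECOM at 9.97, 11.3 and 10.1 FPKM and GATA6 at 9.69 FPKM. FOXA2 stood at 2.44, 4.25 and 3.97 FPKM, SOX9 at 3.91 FPKM and HHEX at 1.52 FPKM. PDX1, the master factor of the pancreatic bud, stood at 0.0241, 0.0492 and 0 FPKM, HNF4A, of classical tumours, at 0.0416, 0.0445 and 0.0400 FPKM, and GATA4 at 0.267, 0.232 and 0.135 FPKM. ONECUT1, PTF1A, RBPJL, NKX2-2 and NEUROG3 were listed at 0 in the 3 libraries.

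Factors of general and stratified epithelium were more often expressed, with 18 of 24 at 1 FPKM or more and a median of 4.86 FPKM. This list too was drawn up with earlier results of these data known. KLF5, a factor of proliferating epithelium, stood at 112, 117 and 108 FPKM. EHF, an epithelial ETS factor, stood at 70.5, 74.3 and 61.8 FPKM. KLF5 stood above EHF, and EHF above PITX1, in each library. PITX1 stood at 36.6, 39.1 and 37.6 FPKM, ESRP1, a splicing regulator of epithelial isoforms, at 33, 34.3 and 33 FPKM, and GRHL2, which maintains junctions, at 20.2, 19.8 and 18.2 FPKM. ELF3 stood at 24.1, FOSL1 at 16.9, KLF4 at 5.89, ZNF750 at 5.03, OVOL1 at 4.68, TFAP2A at 4.29 and SOX2 at 3.46 FPKM. TP63, the master factor of squamous epithelium, was expressed in every library but unevenly, at 37.9, 34.7 and 13.2 FPKM, with the third library low. The cause of that spread was not tested. TFAP2C, TFAP2B and ELF5 stood at 0.00468, 0.00104 and 0.0741 FPKM, and TBX3 was listed at 0.

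The large families of factors had a few high members each. In the ETS family 18 of 28 reached 1 FPKM, ETS2 at 48.9, ERF, a repressor downstream of ERK, at 42.2 and ELF4 at 37.7 FPKM after EHF, while the haematopoietic factor SPI1 stood at 0.0137 FPKM. In the KLF family 12 of 17 did, with KLF3 at 26.8 and KLF10 at 23.3 FPKM next to KLF5. In the FOX family 17 of 44 did, led by FOXQ1 at 31.1, 31.4 and 33.6 FPKM and by FOXM1, of the G2 and M phases, at 19.3, 20.03 and 18.7 FPKM. In the SOX family 8 of 19 did. SOX7 led it at 54.6, 55.1 and 55.4 FPKM, but 38.9% of its windows were shared with the overlapping gene PINX1, so its level is uncertain. SOX15 stood at 19.9, 21.9 and 19.6 FPKM and SOX4 at 10.2 FPKM.

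Of 22 AP-1, ATF, MAF and MYC family genes, 16 reached 1 FPKM. ATF4, the factor of the integrated stress response, stood at 147, 149 and 159.8 FPKM and JUNB at 90.8, 89.1 and 90.6 FPKM. FOSL2 stood at 22.3, JUN at 19.9 and FOS at 4.59 FPKM. MYC was uneven at 2.93, 4.3 and 13.9 FPKM, and its mean of 7.04 FPKM becomes 3.62 without the third library. In the STAT and IRF families 12 of 16 reached the threshold: STAT6 stood at 35.3, 37 and 32.3 FPKM, STAT3 at a mean of 15.8 FPKM and STAT2 at 13.7 FPKM, STAT4 stood at 0.481, and the lymphoid factors IRF4 and IRF8 stood at 0.0206 FPKM and 0. Of 39 HOX genes 13 reached 1 FPKM, led by HOXA3 at 10.6, 11.4 and 11.6 FPKM and HOXB7 at 9.93, 9.44 and 8.92 FPKM. No HOXD gene did, the highest of that cluster being HOXD11 at 0.0958 FPKM. Of 22 GATA, PAX, RUNX and TEAD genes 8 did, with TEAD4, a DNA-binding partner of YAP, at 13.9, 13.3 and 13.6 FPKM. PAX7, known from muscle stem cells, stood at 9.68, 9.14 and 9.38 FPKM, with no window shared with another gene, while PAX3, its closest relative, was listed at 0. Of 48 nuclear receptors 21 reached 1 FPKM, with ESRRA at 23.1, RARG, the retinoic acid receptor of skin, at 21, 22.1 and 19.9 FPKM, VDR at 7.05, 7.37 and 6.55 FPKM and PPARG at 4.15, 4.84 and 7.1 FPKM. The oestrogen and progesterone receptors stood at 0.158 FPKM for ESR1 and 0.00152 for PGR.

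Of 58 receptor tyrosine kinases 23 reached 1 FPKM, against 52.5% of all coding genes. EPHA2, an ephrin receptor, stood at 91.2, 86.5 and 76.5 FPKM. MET, the receptor of hepatocyte growth factor, stood at 76.7, 80.1 and 75.7 FPKM, and EGFR at 51, 50.1 and 43.2 FPKM. These 3 were the highest in each library. EPHB4 stood at 33.7, 33.3 and 31.9 FPKM, FGFR3 at 27.8, 32 and 24.3 FPKM, and AXL, a receptor of GAS6, at 21.2, 21.7 and 19.4 FPKM. MST1R, the receptor of macrophage stimulating protein, stood at 19.9, 19.6 and 17.8 FPKM, ERBB3 at 11.8, 11.4 and 11.3 FPKM, ERBB2 at 6.35, 6.16 and 5.86 FPKM and IGF1R at 8.95, 8.77 and 8.11 FPKM. DDR1, a collagen receptor, stood at 21.8 FPKM. The receptors of stroma, endothelium and blood cells were close to 0, with PDGFRA at 0.0948 and PDGFRB at 0.00594 FPKM, and KIT, KDR, RET, ROS1 and NTRK3 were listed at 0. ERBB4 stood at 0.0156 and INSR, the insulin receptor, at 0.502 FPKM.

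Growth factor ligands differed by family. Of 11 EGF family ligands 6 reached 1 FPKM: HBEGF stood at 53.3, 56.9 and 57.5 FPKM, AREG at 21.7, 22.5 and 24.3 FPKM, EREG at 17.3, 16 and 17.7 FPKM and TGFA at 14.5, 13.8 and 15.3 FPKM, all of them ligands of EGFR, which was itself expressed. EGF stood at 0.0455 FPKM. Of 22 FGF ligands none reached 1 FPKM, the highest being FGF11, which acts inside cells, at 0.293 FPKM, and 1 did after the TPM-like rescaling. Their receptors FGFR3 and FGFR2 stood at 28 and 2.42 FPKM. HGF was listed at 0 beside MET at 77.5 FPKM, and IGF1 at 0 beside IGF1R. For HGF, 3 fragments on its longest transcript would have given 0.0106 to 0.0337 FPKM, which bounds what a value of 0 allows for counting error only. The reverse was seen for KITLG, stem cell factor, at 9.02, 9.13 and 9.8 FPKM with KIT at 0, for PDGFA at 11.6, 12.1 and 13.9 FPKM with both PDGF receptors under 0.1 FPKM, and for VEGFA at 14.6, 14.2 and 14.9 FPKM with KDR at 0. EFNB1, an ephrin, stood at 104, 105 and 101 FPKM beside its receptors EPHB3 and EPHB2 at 8.14 and 3.12 FPKM. EFNA1, a ligand of EPHA2, stood at 11.7 FPKM.

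For the TGF-beta superfamily, 9 of 14 receptors and 7 of 33 ligands reached 1 FPKM. TGFBR2 and TGFBR1, the receptor pair for TGF-beta, stood at 10.1, 10.9 and 9.23 FPKM and at 7.9, 8.1 and 8.48 FPKM. TGFB1 stood at 23.4, 24.6 and 24.2 FPKM, and GDF15, a stress-induced relative, at 17.1, 18.6 and 15.3 FPKM. BMP2 stood at 4.19, 3.92 and 3.72 FPKM, and BMP4 at 0.110 FPKM. Wnt receptors reached 1 FPKM in 10 of 17 genes and Wnt ligands in 6 of 19. FZD6 stood at 40.8, 41.9 and 48 FPKM and the coreceptor LRP5 at 28, 25.5 and 21.4 FPKM, while LGR5, of intestinal stem cells, stood at 0.00821 FPKM. WNT7B stood at 13.6, 13.9 and 13.8 FPKM, WNT10A at 9.78, 10.1 and 9.62 FPKM and WNT7A at 5.54 FPKM, and WNT5A at 0.0214 FPKM. Of 7 Notch and Hedgehog receptors NOTCH2 and NOTCH1 reached the threshold, at 13.1, 12.7 and 10.6 FPKM and at 11.5, 10.6 and 8.73 FPKM, and 4 did after the TPM-like rescaling. Their ligands JAG1 and JAG2 stood at 40.8, 39.4 and 36.5 FPKM and at 19.8, 26.4 and 24.2 FPKM, and DLL1 at 8.25 FPKM. The Hedgehog side was below 1 FPKM, with SHH at 0.158, SMO at 0.00598 and PTCH1 at 0.762 FPKM.

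Of 52 cytokine receptor genes 23 reached 1 FPKM. IFNGR1, a chain of the interferon-gamma receptor, stood at 42.5, 42.4 and 49.1 FPKM, OSMR, the oncostatin M receptor, at 42.2, 42.8 and 39 FPKM, and IL13RA1 at 29.5, 30.1 and 33.3 FPKM. IL6ST, the shared signalling chain of the IL6 family, stood at 10.6, 13.6 and 12.5 FPKM, IL6R at 2.88, 2.64 and 1.98 FPKM and LIFR at 3.07, 2.93 and 2.42 FPKM. In that family IL6 itself stood at 0.0817, 0.204 and 0.0947 FPKM and OSM at 0.0103 FPKM, while LIF stood at 15.3, 14.2 and 14.7 FPKM and CLCF1 at 10.3 FPKM. So LIF was the IL6-family ligand with the highest level, and IL6 was below 1 FPKM in every library. IL4R stood at 11.2, 12.9 and 8.76 FPKM. IL2RG stood at 8.66 FPKM with 66.1% of windows shared, and IL2RA, CSF2RB and CRLF2 were listed at 0.

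Of 49 interleukins and related cytokines 14 reached 1 FPKM, and the top 4 belonged to the IL1 family. IL1A stood at 70.5, 74.2 and 71.6 FPKM and IL1B at 20.7, 21.1 and 19.6 FPKM. IL18 stood at 20.1, 20.6 and 34.2 FPKM and IL1RN, the receptor antagonist, at 25, 16.7 and 14.5 FPKM, with the third library highest for the first and the first library highest for the second. IL33 stood at 9.25, 10.1 and 9.5 FPKM and its receptor IL1RL1 at 9.91, 11.4 and 9.69 FPKM. T cell cytokines such as IL2, IL4, IL10 and IL17A were listed at 0. No interferon gene of 10 reached 1 FPKM.

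Of 42 chemokines 15 reached 1 FPKM, and of 22 chemokine receptors none did, or 1 after the TPM-like rescaling. The neutrophil attractants CXCL1 and CXCL8 stood at 18.8, 19.3 and 21.3 FPKM and at 16.4, 17.8 and 20.2 FPKM, and their receptors CXCR1 and CXCR2 at 0 and at 0.0418 FPKM. CXCL10, an attractant of activated T cells, stood at 8.19, 8.9 and 7.52 FPKM, with CXCR3 at 0.0139 FPKM. CXCL16 and CXCL14 stood at 10.1 and 8.38 FPKM. CXCL12, the stromal chemokine, and CXCR4, its receptor, were both listed at 0. ACKR3, a scavenger of CXCL12, was the receptor nearest to the threshold at 0.727, 1.03 and 1.13 FPKM, and it passed 1 FPKM when the first library was left out.

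Of 29 TNF receptor superfamily genes 14 reached 1 FPKM, and of 18 ligands 3 did. TNFRSF21, death receptor 6, stood at 128, 133 and 129 FPKM and was the highest receptor of this family. TNFSF10, the ligand TRAIL, stood at 31.3, 31.8 and 33.9 FPKM, and TNFRSF10B, one of its receptors, at 45.4, 44 and 44.2 FPKM. TNF and FASLG stood at 0.0927 FPKM and 0. TNFRSF6B, a decoy receptor, stood at 0.000214, 43 and 36 FPKM, and all of its windows were shared with the readthrough gene RTEL1-TNFRSF6B, so its level is uncertain. Of 10 Toll-like receptors 2 reached 1 FPKM, TLR2 at 3.25 and TLR3 at 1.41 FPKM.

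**Figure D4:**
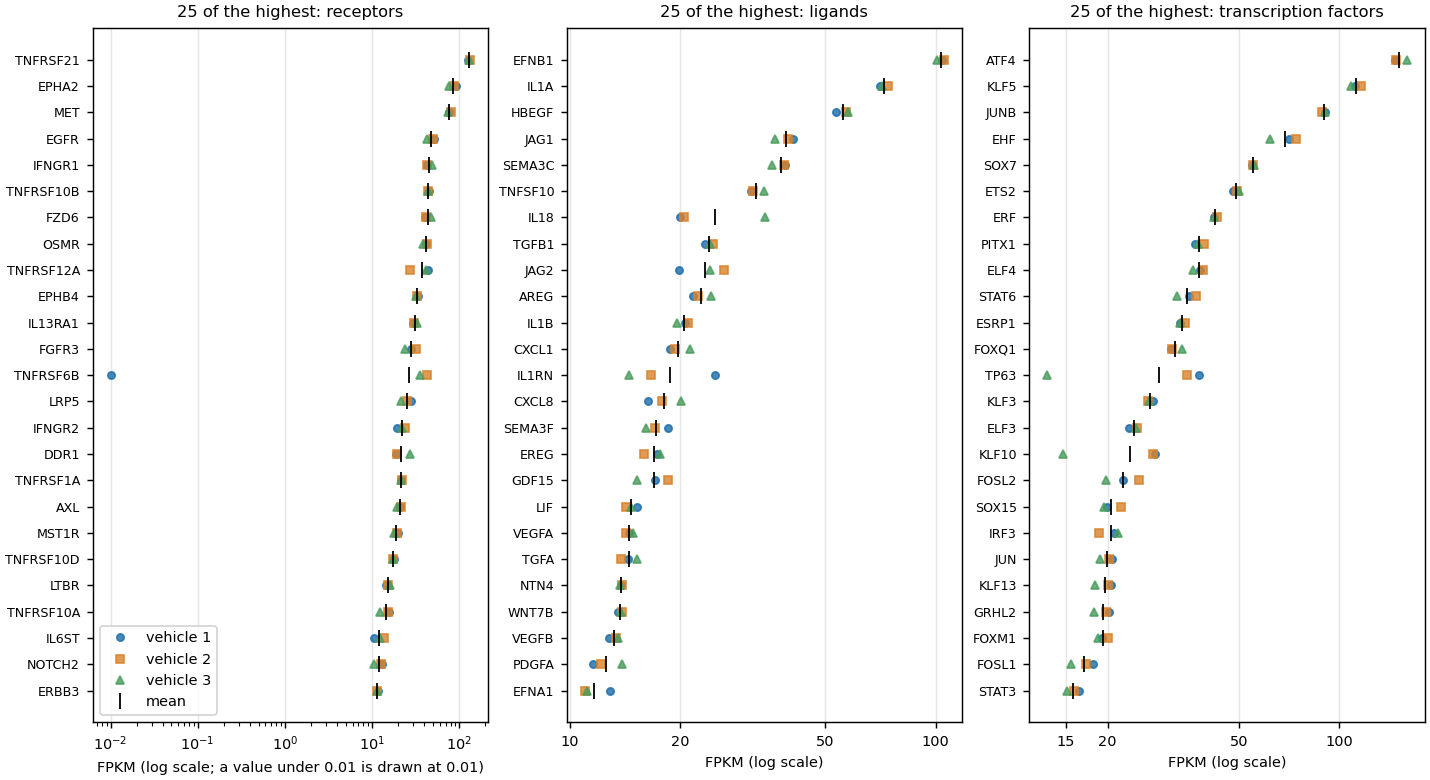
FPKM on log axes of 25 of the highest receptors (left, without integrins and nuclear receptors), ligands (middle) and transcription factors (right) of the lists, with a symbol per vehicle library and a bar at the mean. The lists of factors also hold ESRP1, a splicing regulator. The 3 symbols lie close together for most genes; TNFRSF6B, drawn at 0.01 in the first library, and TP63, low in the third, stand out.

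Integrins, the receptors for matrix, reached 1 FPKM in 13 of 26 genes. ITGB1 stood at 147, 155 and 133 FPKM and ITGA6 at 86.7, 92.4 and 79.7 FPKM. ITGB4, which pairs with ITGA6 in hemidesmosomes, stood at 67.3, 65.9 and 61.3 FPKM. Both chains were thus expressed beside the laminin-332 genes named above. ITGA3 stood at 70.1, ITGA2 at 39.7 and ITGAV at 28.1 FPKM, and ITGB6, the epithelial partner of ITGAV, at 12.2, 11.9 and 12.4 FPKM. The leukocyte chains ITGAL, ITGAX and ITGA4 stood at 0.00794 FPKM, 0.0153 FPKM and 0.

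Of 26 genes that are commonly altered in pancreatic cancer, 23 reached 1 FPKM. SF3B1, a splicing factor, stood at 33.3, 35.7 and 32.4 FPKM, and GNAS, a G protein subunit, at 29.5, 30.6 and 28.9 FPKM. MAP2K4, a kinase of the JNK pathway, stood at 0.302, 0.327 and 0.233 FPKM, low in each library. SMAD4, the shared signal carrier of the TGF-beta superfamily, and CDKN2A, which codes for the cell cycle inhibitor p16, were listed at 0 in all 9 libraries of the series. On their longest transcripts 3 fragments would have given 0.00725 to 0.023 FPKM for SMAD4 and 0.0495 to 0.157 FPKM for CDKN2A in the vehicle libraries. Of all coding genes 12.1% were at 0 in all 9 libraries.

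The genes on both sides of these loci were read in RefSeq order. On chromosome 18, SMAD4 lay in an unbroken run of 6 coding genes listed at 0 in all 9 libraries, MAPK4, MRO, ME2, ELAC1, SMAD4 and MEX3C. ME2, a mitochondrial malic enzyme, ELAC1, a tRNA processing enzyme, and MEX3C, an RNA-binding ubiquitin ligase, are transcribed in many cell types. The run ended at SKA1, of the kinetochore, at 6.27, 7.12 and 7.17 FPKM on one side, and after DCC at 0.0124 FPKM, at MBD2, a reader of methylated DNA, at 15.3, 14.7 and 17.6 FPKM on the other. On chromosome 9, CDKN2A lay in a run of 20 coding genes at 0 in all 9 libraries. Beside CDKN2A the run held MTAP, the methionine salvage enzyme, CDKN2B, DMRTA1 and KLHL9, and all its other members were interferon genes. Among the 10 genes of the interferon list none reached 1 FPKM. With 3 fragments, MTAP would have stood at 0.00841 to 0.0267 FPKM. FOCAD stood at 2.34, 2.23 and 2.03 FPKM and TUSC1 at 4.22, 3.77 and 4.4 FPKM. Between them none of 24 coding genes, the interferon genes included, had a mean above 0.0317 FPKM, the mean of HACD4. RNA levels alone do not tell an absent gene from a silent one.

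**Figure D5:**
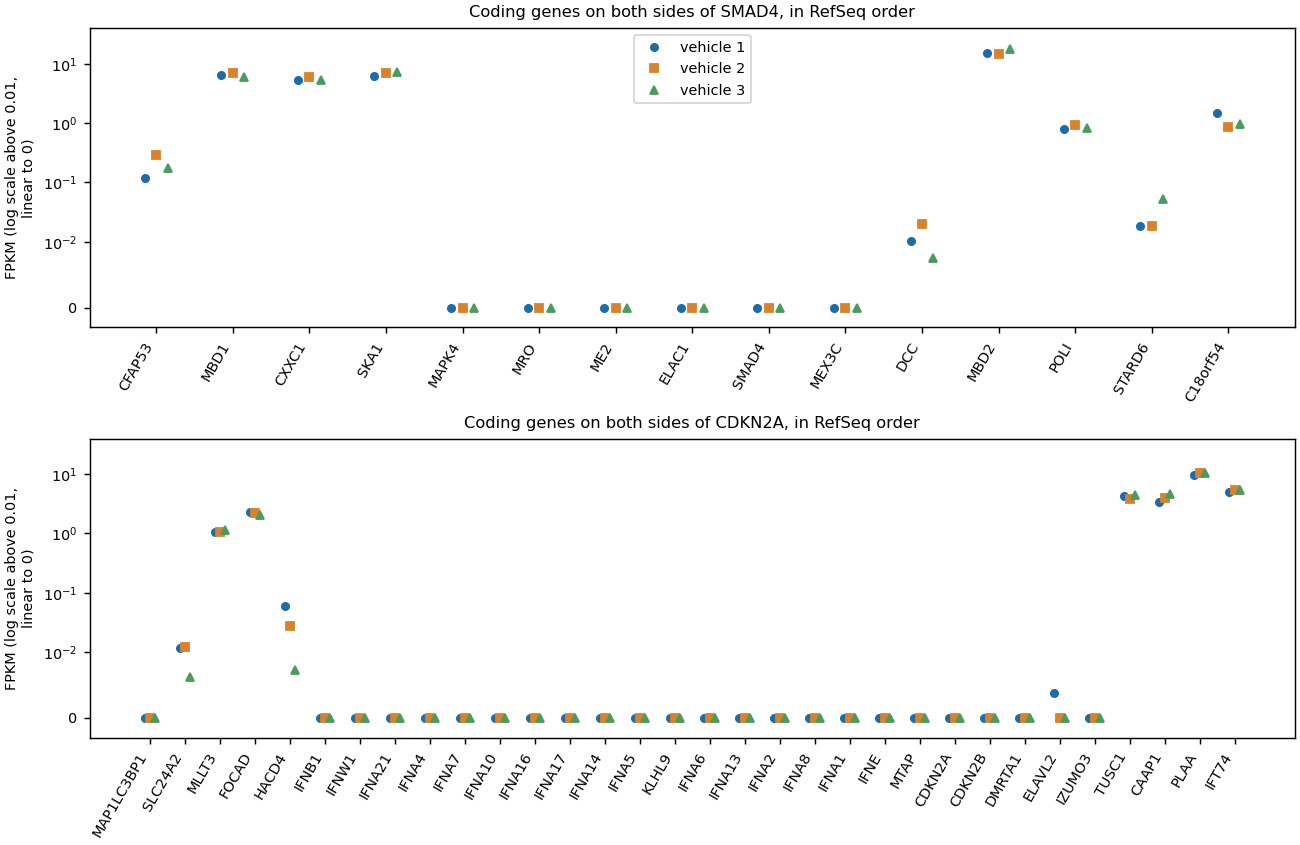
FPKM in the 3 vehicle libraries of the coding genes around SMAD4 (top) and CDKN2A (bottom), in RefSeq gene order, on an axis that is linear from 0 to 0.01 and logarithmic above. All symbols of the 6 genes from MAPK4 to MEX3C and of the 20 from IFNW1 to DMRTA1 lie at 0. Most of those 20 are interferon genes. SKA1, MBD2, FOCAD and TUSC1 lie above 1 FPKM.

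The libraries differed widely on some genes, and the odd library was not the same for each. Several non-coding entries were highest in the third library. RN7SL2 stood at 49.7, 28.3 and 178 FPKM and RN7SL1 at 47.6, 23.3 and 122 FPKM. FP236383.2 stood at 207, 162 and 700 FPKM. AHNAK, a very large scaffold protein, stood at 7.67, 7.21 and 138 FPKM, high in the third library. HNRNPH2, a splicing factor, stood at 78.9, 5.48 and 81.9 FPKM, low in the second. CHMP1B, of membrane scission, stood at 2.18, 25.1 and 30.2 FPKM, low in the first. The mitochondrial gene MT-ATP6 stood at 1953, 11352 and 11784 FPKM, low in the first library, although the mitochondrial genes next to it in abundance were even. CDKN1A, the cell cycle inhibitor p21, stood at 28.2, 8.61 and 30.3 FPKM. These genes were named for their spread, after their values were seen, and what moved them was not tested.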

How the data were processed

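RNA-seq was done on 9 libraries of BxPC3, and the 3 vehicle libraries were described here. The authors deposited FPKM values, in 1 table with all libraries, but not counts, and count models were therefore not used. FPKM is relative to each library's own total, and a gene's value depends on how fragments shared by similar or overlapping genes were divided. Per the labels' protocols, RNA was extracted with a Qiagen RNeasy kit and the library procedure was Illumina's standard one. Bowtie 0.12.2 and the build mm8 are named in the submitters' processing notes. As mm8 is a mouse build and the identifiers are human ones, the build is uncertain, and positions on the genome are left out. Which program made the FPKM values, with which annotation and strand setting, is not given in the sources used here.

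Python 3.11.15 with numpy 2.4.6, pandas 2.3.3 and matplotlib 3.10.9 was used. Means and SD were taken over the 3 libraries, with 1 FPKM as the threshold and values under 0.1 FPKM called near 0. Correlations used log2(FPKM + 1) over genes at 1 FPKM or more. No test was made, since the levels of 1 group were described. The depth of a library was estimated from the smallest steps in FPKM among genes with 1 annotated transcript, a method tested on simulated data. Gene types and transcripts came from GENCODE 29, which held 96.5% of identifiers, and gene order from RefSeq. Coding sequences were the longest open reading frames of the longest coding transcripts. A total of 27 symbols turned into dates was restored, and 2796 identifiers had no symbol. In 29 housekeeping genes, chosen after the data were seen, none was at 0 and the lowest stood at 8.63 FPKM. Of 82 ribosomal protein genes, taken by their symbols, 3 were listed at 0. The symbol rule also admitted copies with a Y or an L after the number, and these were not counted apart. Whether the 3 were failed estimates or genes not transcribed here was not tested, so a listed 0 may be either.

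The 56 gene lists (1113 genes, 454 of them at 1 FPKM or more, 40.8%) and the choice of genes were made with earlier results of these data known. The tumour lists follow the published classifications as generally known, not a file. Genes were named by a rule: the 30 most abundant identifiers, the 30 most abundant coding genes after mitochondrial and ribosomal protein genes, in each list up to 10 of the highest members, those nearest to 1 FPKM and those at 0 or under 0.1 FPKM, all gene pairs and drivers, and the 10 genes at 10 FPKM or more with the largest ratio between libraries. Other genes named (ALDH1A3, ID1, CDKN1A, RN7SL1, FP236383.2 and further list members) were chosen after their values were seen. One classical tumour gene was not matched. A few members, counted in their lists, are not reported here by name and were left out of the plots with gene names. Alternatives were 2 other scalings, thresholds of 0.5 and 2 FPKM, 1 FPKM in all 3 libraries, another pseudocount, no filter, coding genes only, a margin of 2 in the gene pairs, and leaving out each library.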

Additional observations from a re-analysis of the deposited data

How the results depend on the processing

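The count of 12236 identifiers at 1 FPKM or more was 16516 after the libraries were rescaled as in TPM, 12223 after median-of-ratios scaling, 14528 at a threshold of 0.5 FPKM, 10012 at 2 FPKM, 11559 with 1 FPKM in all 3 libraries, and 12244 to 12251 with a library left out. The 100 most abundant identifiers held 48.9% of FPKM, and 21.5% without mitochondrial and ribosomal protein genes. Correlations between the vehicle libraries were 0.972, 0.967 and 0.969 with a pseudocount of 0.1, and 0.993, 0.992 and 0.991 with no filter on low values. With a margin of 2 in the gene pairs, 7 of 8 held, BCAR3 over GATA6 being the exception. Of 56 lists, median-of-ratios scaling moved the count of expressed members by over 1.5 times in 0, the TPM-like rescaling in 8, a threshold of 0.5 FPKM in 4, 2 FPKM in 8, 1 FPKM in all libraries in 3, and leaving out a library in 1 or 2. The TPM-like rescaling moved the count from 0 to 3 for endothelial genes, from 0 to 1 for chemokine receptors and for FGF ligands, from 1 to 2 for endocrine genes, from 2 to 4 for Notch and Hedgehog receptors, from 2 to 5 for Toll-like receptors, from 3 to 6 for classical cadherins and from 6 to 11 for VEGF, PDGF, HGF and IGF ligands. At 0.5 FPKM 1 endothelial gene, 1 chemokine receptor, 2 endocrine genes and 10 of the VEGF, PDGF, HGF and IGF ligands reached the threshold. At 2 FPKM the HOX count fell from 13 to 6 and the interleukin count from 14 to 7. Depth limits the lowest values: 3 fragments on 1 kb of transcript equal 0.0636 FPKM in the first vehicle library and 0.193 and 0.202 FPKM in the others. No paired analysis was possible because no difference between groups was tested.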

Other observations

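The long non-coding RNAs H19, MALAT1 and NEAT1 were outside the lists of cell identity. H19, an imprinted RNA of fetal tissue, measured 39.2, 97.3 and 89.5 FPKM, lowest in the deepest one. MALAT1 and NEAT1, which mark nuclear bodies, stood at 38.3 ± 4.83 and 8.15 ± 0.903 FPKM (SD, n = 3). By gene type, the identifiers at 1 FPKM or more included 354 processed pseudogenes, 351 antisense genes and 273 lincRNAs. Pseudogene entries reached the top of the table, with RPL41P1 at 1451, 1145 and 1332 FPKM and EEF1A1P5 at 1037, 987 and 1005 FPKM, beside EEF1A1 at 928 FPKM. Their sequences are close to those of their parent genes, so the division of fragments between them is uncertain.

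Of 9 genes known to respond within minutes to handling of cells, 8 reached 1 FPKM. EGR1 stood at 54.6, 52.7 and 53.0 FPKM, DNAJB1 at 26.2, 32.4 and 32.5 FPKM and IER2 at 24.4, 23.3 and 22.2 FPKM. HSPA1A stood at 83.3, 75.7 and 72.8 FPKM, with 72.6% of its windows shared, mostly with HSPA1B. ATF3, the member with a mean below the threshold, stood at 0.589, 0.643 and 1.03 FPKM.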
